A study of Mus musculus with 4 samples.

Results

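The double mutant LSK array was compared with the WT LSK array. The comparison covers 33529 of the 55681 array features that were not controls, those whose signal was well above background on at least 1 of the 2 arrays. A feature is a short DNA strand fixed to the array that captures 1 stretch of 1 transcript. Of the compared features 25136 were well above background on both arrays, 4901 on the double mutant array alone and 3492 on the WT array alone. They included 19967 features with a gene name, which gave 14838 genes, and 13562 features without one.

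The study placed fetal liver cells of 4 genotypes, taken at E14.5 on the C57B6 background, into mice whose own marrow had been destroyed by lethal irradiation, and later sorted LSK cells from the recipients' bone marrow. WT donor cells carried no lesion. TET2KD donor cells carried a knock-down of TET2, JAK2V617F donor cells came from transgenic mice with the V617F form of the kinase JAK2, and double mutant cells carried both lesions. Each genotype was read on 1 array, with 5 mice named for each, collected at week 16 of the transplant in WT and JAK2V617F, at week 13 in the double mutant and at week 10 in TET2KD. Whether the 5 mice were pooled, which promoter drives the transgene, how the knock-down was made and how many recipient cells remained are not given in the sources used here. The double mutant and WT arrays therefore differ in 2 lesions and in 3 weeks of time after transplantation, which cannot be told apart.

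LSK cells are marrow cells that lack lineage markers and carry Sca-1 and c-Kit on their surface, in which the hematopoietic stem cells and the multipotent progenitors lie. JAK2 is the kinase bound to the receptors for erythropoietin and other cytokines, and the V617F form signals to STAT5 and to the MAP kinase pathway without a ligand. It is the common lesion of myeloproliferative neoplasms. TET2 oxidises 5-methylcytosine, and its loss is known to extend stem cell self-renewal and to skew progenitors toward myeloid fates; both lesions occur together in patients.

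A level below is the log2 signal of a feature minus the 75th percentile of its array, so that a level of 0 equals that percentile and each unit is a doubling. The 75th percentile of the signal was 128 on the WT array and 144 on the double mutant array, 51.5% and 54.1% of spots were well above background, and none was saturated. Repeated spots of 1 feature gave the difference between 2 single spots an SD of 0.22 on the log2 scale. That error covers the spots only. With 1 array per genotype there is no replicate of the animals, the sort or the RNA amplification, so no p-value exists, and a gene called "higher" or "lower" is so on these 2 arrays only. A list is described by how many of its members were at least 2-fold apart and by its median, beside the same over all genes.

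The knock-down and the sort were read from the same arrays. On the Tet2 feature at chr3:133126751-133126810 (mm9) the level was 2.06 in WT, 1.23 in TET2KD and 2.14 in JAK2V617F. The double mutant stood at 1.36, which is 61.6% of the WT signal. The neighbouring feature at chr3:133126905-133126964 stood at 60.3% of WT in the double mutant and at 27.3% in TET2KD. JAK2V617F, which carries no knock-down, stood at 73.1% of WT on it. Both arrays that carry the knock-down were the low ones on both features. The remaining Tet2 feature, at chr3:133176421-133176479, was not well above background in WT and was at least 2.36-fold higher in the double mutant. Jak2 was read by 1 feature (chr19:29387487-29387546), at 106% of WT in the double mutant; whether it captures the transgene is not given.

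Among the genes that define the gate, Ly6a, which encodes Sca-1, was at 2.13 in WT and 2.71 in the double mutant, and Kit, which encodes c-Kit, was at 4.19 and 2.37. Ms4a1 of mature B cells and Cd3d, Cd3g and Cd8a of T cells were not well above background on either array, but 5 of 10 B cell markers and 6 of 10 T cell markers were on each, and of 9 natural killer cell markers 3 in WT and 8 in the double mutant. Itgam, a myeloid lineage marker, was at 2.82 in WT and 2.47 in the double mutant. The arrays also differed in genes of sex chromosomes. Xist, the transcript that silences an X chromosome in females, was at 5.57 in WT, 1.62 in TET2KD, 4.05 in JAK2V617F, with the double mutant at -1.53 on 1 feature, 137-fold lower in the double mutant than in WT. The Y-linked gene Ddx3y was not well above background in WT and reached -0.53 in the double mutant, which is at least 5.59-fold higher. The Y-linked genes did not go one way, since Uty was at -1.45 in WT and not well above background in the double mutant, at least 3.34-fold lower on 1 feature and at least 1.78-fold on another, and Eif2s3y was at -0.69 and -0.87. The sex of donors and recipients is not given in the sources used here, and its part in the results was not tested.

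Of the 33529 features, 5471 were at least 2-fold higher in the double mutant (16.3%) and 5612 at least 2-fold lower (16.7%). Close to the line, 792 features were 2 to 2.1-fold apart and 867 were 1.9 to 2-fold apart. By gene, averaged over the features of a gene, 2274 of 14838 were higher (15.3%) and 2454 lower (16.5%), with a median difference of -0.01. These shares are the background for every count below. For 2986 of the genes 1 array was not well above background on any compared feature, and a fold is then given as "at least". For a further 1282 that held for some of the features, and the mean fold then rests in part on the floor of the array.

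How much a 2-fold difference of 1 feature says depended on its brightness. Among features well above background on both arrays, the differences of those with a mean level under 0 over the 4 arrays had an SD of 1.14, and 14.2% were at least 2-fold higher and 17.4% lower. At a mean level of 4 or more the SD was 0.43, and 2.52% were higher and 0.975% lower. Counts are therefore also given over bright features, those with a mean level of at least 1 over the 4 arrays that were well above background on both compared arrays. Over the 4699 genes with such features, 421 were at least 2-fold higher (8.96%) and 444 lower (9.45%), and the median was -0.06.

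**Figure D1:**
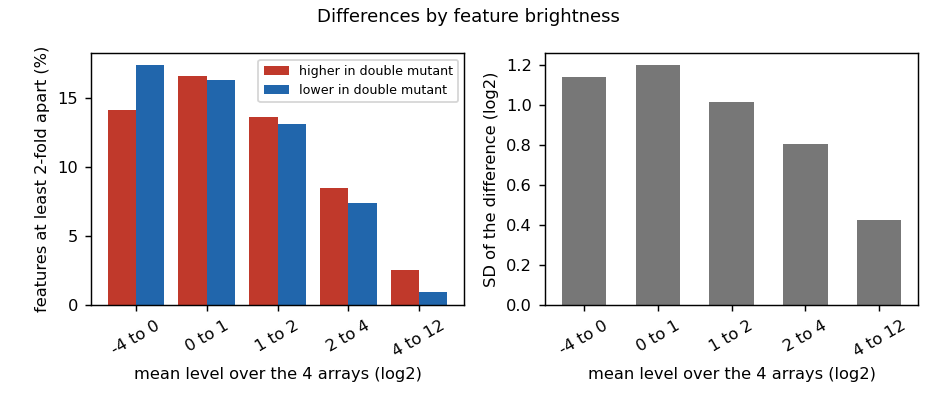
Left, the percentage of features at least 2-fold higher (red) or lower (blue) in the double mutant; right, the SD of the log2 difference; both by the mean level over the 4 arrays (horizontal axis, log2), for features well above background on both arrays. The SD was 1.14 in the dimmest class and 0.43 in the brightest, where 2.52% of features were higher and 0.975% lower.

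A further check set features of 1 gene against each other. For 2026 genes whose features were all well above background on both arrays and spanned at least 500 bases of the genome, 44 were at least 2-fold higher on every feature (2.17%) and 70 lower (3.46%). In the same set 115 genes had 1 feature at least 2-fold higher and another at least 2-fold lower, nearly as many as the 114 whose features moved the same way. Across these genes, which are not independent replicates, the differences of the first and last feature had a Spearman correlation of 0.08. Among the 394 genes whose features were all bright, 17 were at least 2-fold apart the same way on every feature and 2 in opposite ways, with a Spearman correlation of 0.21. A 2-fold difference on 1 dim feature was thus repeated elsewhere in the transcript no more often than it was contradicted, and a gene read by 1 feature is a reading of that stretch only.

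**Figure D2:**
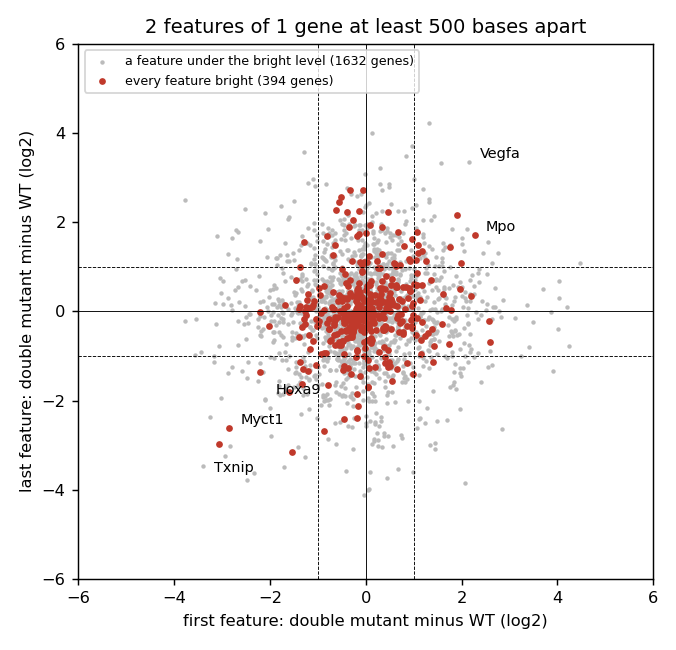
Difference between double mutant and WT (log2) on the first feature of a gene (horizontal) and on its last feature at least 500 bases away (vertical), for 2026 genes; red points are the 394 genes whose features were all bright, and dashed lines mark 2-fold. Most points lie near an axis, and Myct1, Txnip and Mpo stand in the corners where both features moved the same way.

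The genes backed by distant bright features came from both ends of the hematopoietic tree. Myct1, a gene of stem cells and endothelium, was at 3.19 in WT, 2.18 in TET2KD, 1.69 in JAK2V617F, with the double mutant at 0.34, on the feature at chr10:4740457-4740516 (mm9). On the feature at chr10:4741994-4742053 the levels were 3.92, 3.08, 2.26 and 1.31. The 2 readings gave differences of 7.19-fold and 6.11-fold lower, and on both the double mutant array was the lowest and WT the highest. Mpo, the peroxidase of the primary granules of granulocytes, was the largest of the named higher genes in this set after Nupl1. On its features at chr11:87615121-87615180 and chr11:87617840-87617899 the levels were 3.17 and 4.59 in WT and 5.44 and 6.30 in the double mutant, 4.82-fold and 3.28-fold higher.

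Other genes of the set are given with the lowest and highest fold of their features. Higher on every feature were Nupl1, a nuclear pore gene (3.77-fold to 4.50-fold), Ndufa5 of respiratory complex I (2.72-fold to 3.37-fold), and Selplg, which encodes the P-selectin ligand PSGL-1 (2.25-fold to 2.56-fold). Cdca8, a subunit of the chromosomal passenger complex of mitosis, was 2.11-fold to 3.98-fold higher, the myeloid progenitor gene Plac8 2.14-fold to 2.49-fold, the lysosomal membrane gene Lamp2 2.13-fold to 2.83-fold and Bzw2 2.18-fold to 2.38-fold. Lower on every feature were Slc50a1, a sugar transporter (2.89-fold to 8.95-fold), Fbxo30, an F-box gene (3.05-fold to 3.49-fold), and Eml2, a microtubule-binding gene (2.55-fold to 4.63-fold). Ndufb2 of complex I was 2.45-fold to 2.47-fold lower and Cflar, the inhibitor of caspase 8, 2.30-fold to 2.54-fold.

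Dimmer genes with distant features that moved together include several regulators. Txnip, the thioredoxin-binding protein that is high in resting stem cells, was 10.5-fold and 11.2-fold lower, the largest difference on the lower side when genes are ranked by the smaller of their features. Hoxa9, a homeobox factor of stem cells and early progenitors, was 4.32-fold and 3.92-fold lower, the kinase inhibitor gene Cdkn1b 2.67-fold to 3.14-fold lower and the clock gene Per1 2.24-fold to 4.63-fold lower. On the higher side Vegfa, the endothelial growth factor, was 4.48-fold and 10.3-fold higher, and the chemokine gene Cxcl10 was 2.96-fold and 10.1-fold higher.

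**Figure D3:**
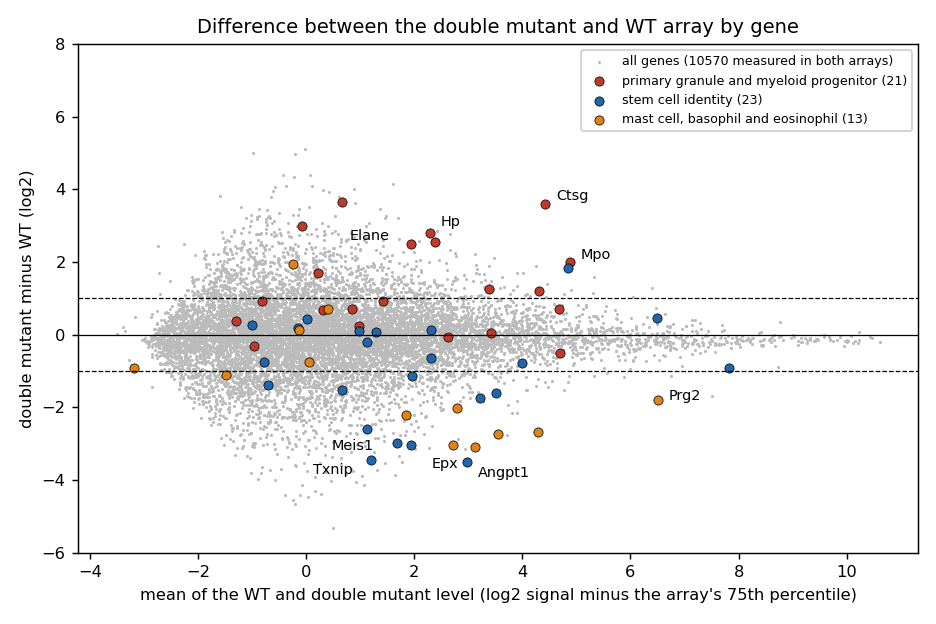
Difference between double mutant and WT (vertical, log2) against the mean level of the 2 arrays (horizontal, log2) for 10570 genes well above background on both arrays; coloured points are members of 3 gene lists and dashed lines mark 2-fold. The spread narrows to the right, where Ctsg (3.60) and Mpo (1.99) stand above and Prg2 (-1.78) below the grey points.

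Genes of primary granules and myeloid progenitors were higher in the double mutant. Of 26 measured members of the list 13 were at least 2-fold higher and 1 lower, and the median was 1.07, against 15.3% higher over all genes. Over bright features 9 of 14 were higher and 0 lower, and the median was 1.24. Elane, Prtn3, Ctsg and Mpo encode proteins packed into primary granules as granulocyte and monocyte progenitors form. Mpo was read by 2 features and each of the others by 1. The 250 bases before the transcription start of these 4 genes are shown. They were chosen with earlier results of these data known, and because their promoters are textbook targets of the factors PU.1 and C/EBP. The sequences are from RefSeq (GRCm38.p6), 5′ to 3′ on the strand of the gene; capitals mark each match to GAGGAAG, a PU.1-type core searched on both strands. Elane lies at chr10:79886062-79886311 on the plus strand, Prtn3 at chr10:79879417-79879666 on the plus strand, Ctsg at chr14:56102575-56102824 on the minus strand and Mpo at chr11:87793534-87793783 on the plus strand.
Elane: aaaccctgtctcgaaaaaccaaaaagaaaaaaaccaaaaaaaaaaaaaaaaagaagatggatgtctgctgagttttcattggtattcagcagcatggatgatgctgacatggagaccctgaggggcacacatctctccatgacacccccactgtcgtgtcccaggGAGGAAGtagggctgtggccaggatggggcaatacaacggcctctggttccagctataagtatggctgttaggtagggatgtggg
Prtn3: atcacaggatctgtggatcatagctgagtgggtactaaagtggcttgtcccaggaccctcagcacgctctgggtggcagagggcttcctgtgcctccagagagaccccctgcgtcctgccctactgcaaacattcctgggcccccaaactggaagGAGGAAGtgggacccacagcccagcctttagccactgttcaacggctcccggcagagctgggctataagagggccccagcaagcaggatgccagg
Ctsg: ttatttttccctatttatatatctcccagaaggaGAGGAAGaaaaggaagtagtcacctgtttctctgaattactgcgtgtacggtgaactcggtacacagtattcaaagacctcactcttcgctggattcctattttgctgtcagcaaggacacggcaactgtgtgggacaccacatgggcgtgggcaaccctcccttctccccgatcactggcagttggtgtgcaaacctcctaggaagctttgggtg
Mpo: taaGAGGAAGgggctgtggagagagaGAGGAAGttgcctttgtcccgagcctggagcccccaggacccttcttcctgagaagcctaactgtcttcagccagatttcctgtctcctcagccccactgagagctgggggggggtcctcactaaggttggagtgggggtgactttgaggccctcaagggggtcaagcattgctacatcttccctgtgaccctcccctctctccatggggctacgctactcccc

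Each of the 4 stretches held the motif, Mpo 2 times and the others 1 time, while 10.6% of all 32851 promoter windows of that length in the table did. The C/EBP-type motif TTGCNNAA was in none of the 4 and in 9.56% of all windows. A match is a run of letters and not a binding site, and no match says only that these letters are not in the window. Because the 4 genes were chosen as known targets, their matches beside the share of all windows are no test. A part of PU.1 in the differences was not tested.

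Ctsg, which encodes the protease cathepsin G, had the largest difference of the 4. It was at 2.62 in WT, 4.50 in TET2KD, 5.91 in JAK2V617F, with the double mutant at 6.22, 12.1-fold above WT. Prtn3, the gene of proteinase 3, was at 1.11, 2.44, 3.65 and 3.67 on the same arrays, 5.89-fold higher in the double mutant. Elane, the gene of neutrophil elastase, was at 0.70, 3.34, 2.96 and 3.21, 5.70-fold higher. On all 3 genes WT was the lowest array by more than 1 unit. The double mutant lay close to the JAK2V617F array on Ctsg and Prtn3. On Elane TET2KD was the highest array, with the double mutant next.

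The members that mark later or neighbouring steps of the lineage followed. Hp, which encodes the hemoglobin-binding protein haptoglobin, was at 0.89 in WT and 3.68 in the double mutant, 6.90-fold higher. Ms4a3, a membrane gene of granulocyte and monocyte progenitors, was 2.38-fold higher and Igsf6, an immunoglobulin-domain gene of myeloid cells, 12.7-fold, from -1.18 to 2.49. F13a1, the coagulation factor XIII subunit of monocytes, was not well above background in WT and at least 31.6-fold higher. Lyz2, the lysozyme of myeloid cells, was 3.24-fold higher. Members that differed by less than 2-fold included Srgn, the proteoglycan core of granules (-0.49 on the log2 scale), Ctsc, the protease that activates granule enzymes (-0.31), and Calr, a chaperone of the endoplasmic reticulum (0.71). Clec12a was the member that was lower, at least 2.45-fold.

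**Figure D4:**
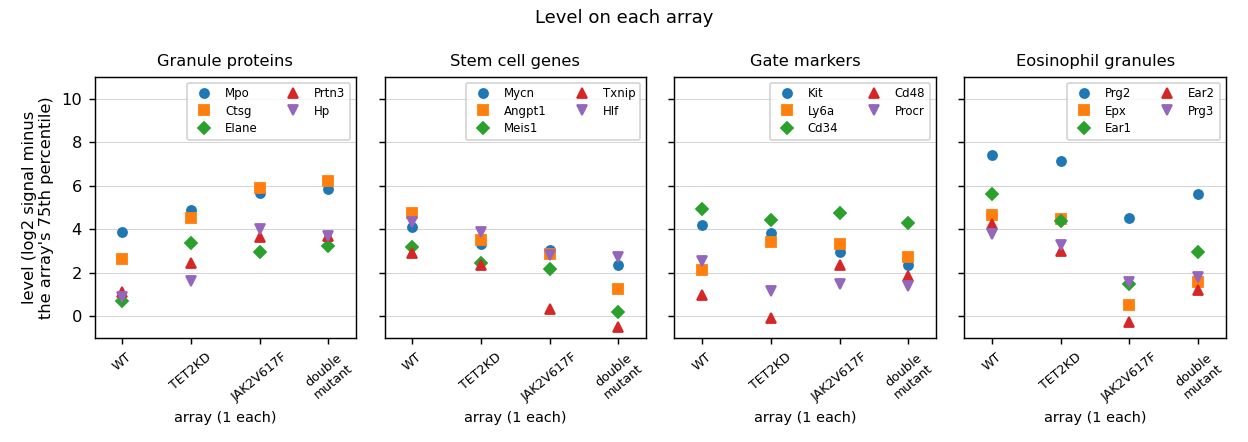
Level (vertical, log2 signal minus the array's 75th percentile) of 5 genes in each of 4 groups on the WT, TET2KD, JAK2V617F and double mutant arrays, 1 point per gene and array. The plotted genes were picked with earlier results of these data known. The granule protein genes plotted are lowest in WT and the stem cell genes plotted are lowest in the double mutant. The eosinophil genes plotted are lowest in JAK2V617F with the double mutant next. Of the 33 measured members of the whole stem cell list, 10 were higher in the double mutant than in WT by any amount.

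Among the transcription factors that steer myeloid fate 8 of 27 were at least 2-fold higher and 1 lower, and the median was 0.29. The shares over all genes were 15.3% and 16.5%. Over bright features 2 of 14 were higher and 1 lower, against 8.96% and 9.45% of all bright genes. Irf8, the factor of monocytes and dendritic cells, had the largest difference and was at -0.39 in WT, 0.49 in TET2KD, 1.53 in JAK2V617F, with the double mutant at 2.59, 7.90-fold above WT. Cebpa, which opens the granulocyte and monocyte program, was at 1.11, 2.24, 3.82 and 2.50, 2.63-fold higher, and here the JAK2V617F array was the highest. Cebpd, a factor of later granulocytes, was 6.27-fold higher and Id3, an inhibitor of helix-loop-helix factors, 5.18-fold. Spi1, the gene of PU.1, and Cebpb, the factor of emergency granulopoiesis, stayed just inside the line with differences of 0.94 and 0.93. Gata1, the erythroid and megakaryocyte factor, was the member that was lower, 2.68-fold, and Runx1, Gfi1 and Myb differed by 0.20, 0.08 and -0.58.

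Genes of monocytes, macrophages and Fc receptors were the list with the highest median among those with 20 or more members, 1.23, with 15 of 25 at least 2-fold higher and 2 lower; for 10 of the 25 the difference is a bound. Over bright features 4 of 9 were higher and 0 lower. The shares higher were 15.3% over all genes and 8.96% over all bright genes. The summed linear level of 10 monocyte and macrophage marker genes was 27.5 in WT and 39.9 in the double mutant, with Mrc1 and C1qa not well above background on either. Tyrobp, the signalling adaptor of activating receptors, was at 4.54 in WT and 6.12 in the double mutant, 2.99-fold higher. Csf1r, the receptor for the monocyte growth factor, was at 1.54 in WT, 0.80 in TET2KD, 0.98 in JAK2V617F, with the double mutant at 2.68, 2.19-fold above WT, although its 3 features differed by 0.16 to 2.99. Fcgr3, a low-affinity receptor for IgG that marks granulocyte and monocyte progenitors, was at -1.57, -0.76, -1.13 and 1.42, 7.93-fold higher, and Ly86, a partner of a Toll-like receptor homologue, was 5.00-fold higher. On these 3 genes the double mutant array was the highest of the 4 by more than 1 unit. Ccr2, Cx3cr1 and Clec4a1 were not well above background in WT and were at least 7.04-fold, 6.56-fold and 6.55-fold higher. Vcam1, an adhesion molecule of marrow macrophages and stroma, was not well above background in the double mutant and was at least 4.07-fold lower.

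Secondary and tertiary granule genes of neutrophils were mixed, and the summed linear level of 10 neutrophil marker genes was 65.8 in WT and 65.8 in the double mutant: 8 of 25 were at least 2-fold higher and 3 lower, and the median was 0.46, and over bright features 2 of 10 were higher and 0 lower. Ngp, a secondary granule gene, was at 1.26 in WT and 2.55 in the double mutant, 2.44-fold higher, and Camp, the gene of the antimicrobial cathelicidin, 2.87-fold. Ltf, the gene of lactoferrin, was at -1.54 in WT, 1.56 in TET2KD and 0.52 in the double mutant and was not well above background in JAK2V617F. Cybb, the catalytic subunit of the phagocyte oxidase, was not well above background in WT and at least 30.2-fold higher. The calgranulin genes S100a8 and S100a9 differed by 0.41 and -0.27 and the lipocalin gene Lcn2 by -0.36.

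Inflammatory cytokine and chemokine genes had a median of 0.99, with 11 of 22 at least 2-fold higher and 3 lower, against 15.3% higher over all genes. But only 4 of the 22 were read by bright features, of which 2 were higher. Ccl9, a chemokine of myeloid cells, was one of those, at 2.56 in WT, 2.50 in TET2KD, 2.76 in JAK2V617F, with the double mutant at 4.06, 2.82-fold above WT. Cxcl2, a neutrophil attractant, was at -1.36, 0.81, 1.44 and 1.41, 6.82-fold higher. Tnf was at 1.52 in the double mutant and at least 23.1-fold higher than in WT, and Cxcl1 at least 7.30-fold. Ccl3 and Ccl4, chemokines read by bright features, differed by -0.47 and 0.09.

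Stem cell identity genes had the lowest median of the lists described here, -1.20, with 18 of 33 measured members at least 2-fold lower and 3 higher, against 16.5% lower over all genes. Over bright features 8 of 15 were lower and 1 higher, and the median was -1.14. Angpt1, the ligand of the stem cell receptor TIE2, had the largest difference and was at 4.74 in WT, 3.51 in TET2KD, 2.87 in JAK2V617F, with the double mutant at 1.23, 11.4-fold below WT. Meis1, the homeobox partner of HOXA9, was at 3.17, 2.45, 2.14 and 0.19, 7.86-fold lower. Hlf, a factor specific to stem cells, was at 4.31, 3.89, 2.81 and 2.71, 3.02-fold lower. For Angpt1, Meis1 and Txnip the double mutant was the lowest array of the 4, while for Hlf it lay beside JAK2V617F.

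Other members of the stem cell list were read on fewer or dimmer features. Mycn was 3.33-fold lower, Tie1, an orphan receptor of stem cells and endothelium, 6.05-fold, and Msi2, an RNA-binding regulator of stem cell division, 3.23-fold on an average that rests in part on the floor. Bmi1, the polycomb gene needed for self-renewal, had 2 features that disagreed, at -3.25 and 0.49, and Prdm16, a regulator of stem cell maintenance, was at least 4.34-fold lower. Mecom, another such regulator, and Lmo2, part of the stem cell factor complex, stayed inside the line at -0.75, from features at -2.69 and 1.18, and at -0.79, as did Gata2 at -0.63, Fgd5 at -0.20 and Runx1 at 0.20. The members that were higher were Ifitm1, an interferon-inducible membrane gene, 3.57-fold and 3.63-fold on its 2 features, Ctnnal1, at least 2.33-fold, and Socs2. The summed linear level of the 12 marker genes of stem cells was 58.7 in WT and 16.5 in the double mutant, and that of the 10 genes of granulocyte and monocyte progenitors was 42.8 and 218; Slamf1 and Hoxb5 were not well above background on either array. On bulk arrays fewer cells of a type and less RNA per cell cannot be told apart.

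Of 14 measured surface genes of the LSK gate and its subsets 4 were at least 2-fold lower and 0 higher, and the median was -0.69. The share lower over all genes was 16.5%. Procr is in this list and in the stem cell list, so the 2 are not separate readings. Over bright features 2 of 10 were lower and 0 higher, where 9.45% of all bright genes were lower. Of these 10 genes 4 had a difference above 0, and the median was -0.37. Kit was at 4.19 in WT, 3.82 in TET2KD, 2.93 in JAK2V617F, with the double mutant at 2.37, 3.52-fold below WT. Procr, the endothelial protein C receptor that marks stem cells, was 2.20-fold lower, Prom1, the gene of CD133, 6.17-fold and Esam, an adhesion molecule of stem cells, 2.70-fold. Cd34 and Flt3, which mark progenitors past the stem cell, differed by -0.63 and -0.78, and Cd48, a marker that stem cells lack, by 0.88. Of Hox genes and their cofactors 6 of 16 were at least 2-fold lower and 1 higher, and the median was -0.63. Beside Hoxa9 and Meis1 the lower members included Pbx4 (2.52-fold), Hoxa5 (2.44-fold) and Pbx3 (2.20-fold on an average with a feature below background), and Hoxa10 was at least 3.63-fold higher.

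**Figure D5:**
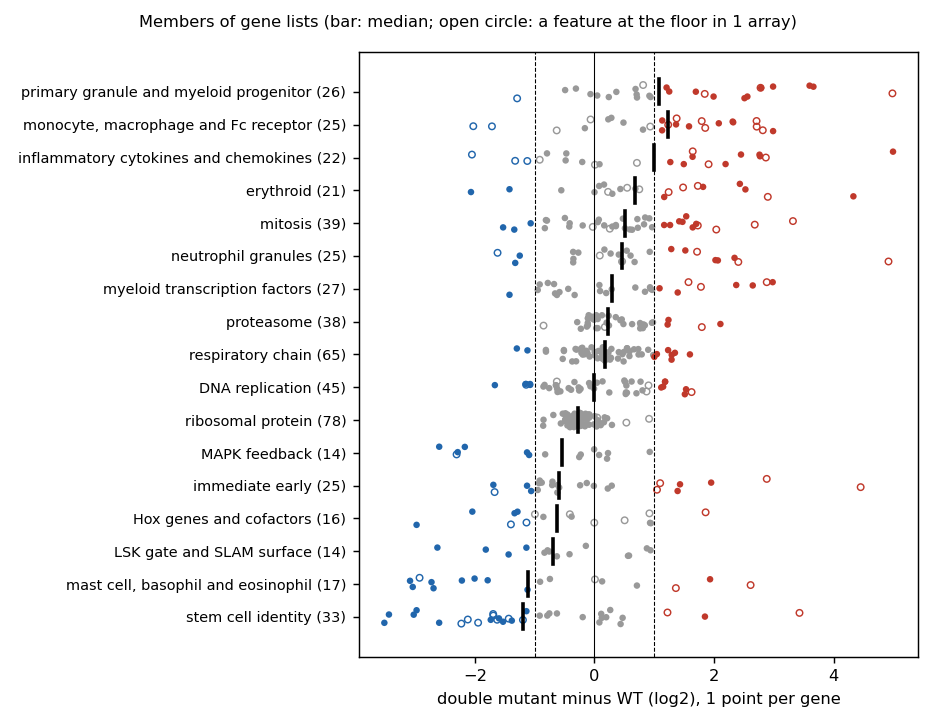
Difference between double mutant and WT (horizontal, log2) for the measured members of 17 gene lists, 1 point per gene, with the number measured in brackets; black bars are medians, red and blue points are at least 2-fold apart, open points have a feature at the floor in 1 array, and dashed lines mark 2-fold. The bars run from 1.23 for monocyte genes and 1.07 for primary granule genes to -1.12 for mast cell, basophil and eosinophil genes and -1.20 for stem cell genes.

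Genes of eosinophil granules were bright on the WT array and lower in the double mutant. Over bright features of the mast cell, basophil and eosinophil list 7 of 8 were at least 2-fold lower and 1 higher, and the median was -2.45. Over all 17 measured members 9 were lower and 3 higher, and the median was -1.12. The shares lower were 9.45% over all bright genes and 16.5% over all genes. Epx, the eosinophil peroxidase, was at 4.67 in WT, 4.46 in TET2KD, 0.50 in JAK2V617F, with the double mutant at 1.59, 8.47-fold below WT. Prg2, the gene of major basic protein, was at 7.40, 7.16, 4.50 and 5.61, 3.45-fold lower. The eosinophil ribonuclease genes Ear1, Ear2, Ear6 and Ear10 were 6.45-fold, 8.21-fold, 4.65-fold and 6.61-fold lower, but they are near-identical copies of one another whose features may capture each other's transcripts. On these genes the arrays fell into a high pair, WT and TET2KD, and a low pair, JAK2V617F and the double mutant. The summed linear level of 9 eosinophil marker genes was 289 in WT and 69.2 in the double mutant, with Ccr3 the only one not well above background on both. Eosinophils are not part of the LSK gate, and their part in the result was not tested. Mast cell and basophil genes did not move as one, since Cpa3, the mast cell carboxypeptidase, was at least 7.59-fold lower and the basophil protease gene Mcpt8 at least 6.11-fold higher.

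The kinases and factors of JAK-STAT signalling themselves did not lean one way. Of 18 members of the JAK and STAT list 3 were at least 2-fold higher and 3 lower, and the median was 0.21. Over all genes 15.3% were higher and 16.5% lower. Stat5a and Stat5b, the factors that JAK2 activates, differed by 0.59 and 0.30, and Ptpn6, the phosphatase SHP1, by 0.27. Jak1 was at 2.66 in WT and 0.74 in the double mutant, 3.78-fold lower, and Stat3 was 2.22-fold higher. Of the targets of STAT5 and the SOCS inhibitors 6 of 24 were at least 2-fold higher and 5 lower, and the median was 0.22, and over bright features 0 of 8 were higher and 1 lower.

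Within that list the members did not move together. Socs2, a feedback inhibitor of cytokine receptors, was not well above background in WT or TET2KD on its features at chr10:94875066-94875125, chr10:94875187-94875246 and chr10:94875468-94875527 (mm9), where its levels were 0.98, 2.08 and 0.46 in JAK2V617F while in the double mutant they were 0.01, 1.46 and -0.21. The double mutant exceeded WT on these stretches by at least 8.10-fold, 22.2-fold and 6.96-fold, and another feature (chr10:94848005-94848064) was below background on all 4 arrays. Cish, the other classical STAT5-induced inhibitor, was at 1.05 in WT, -0.74 in TET2KD, 1.41 in JAK2V617F, with the double mutant at -0.08, 2.19-fold lower. The 250 bases before its start held no match to TTCNNNGAA, a STAT-type motif found in 7.02% of all windows. Pim1, a kinase gene induced by STAT5, differed by -0.10, Socs3 by 0.22 and Myc by 0.68.

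Feedback inhibitors of the MAP kinase pathway leaned lower, with 4 of 14 above 0. Of 14 measured 6 were at least 2-fold lower and 0 higher, and the median was -0.54, against 16.5% lower and 15.3% higher over all genes. Over bright features 3 of 9 were lower and 0 higher, and the median was -0.17, against 9.45% and 8.96% over all bright genes. Dusp6, the phosphatase of ERK, was at 4.89 in WT, 4.40 in TET2KD, 3.42 in JAK2V617F, with the double mutant at 2.72, 4.49-fold below WT. Spry1, an inhibitor of receptor signalling to RAS, was 6.04-fold lower, Spred2, another, 4.88-fold, Dusp4 at least 4.94-fold, and Dusp1 and Etv5 2.18-fold and 2.13-fold. Dusp10 and Etv4 differed by -0.25 and 0.08, and Spry2 by 0.93.

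Among cytokine receptors 9 of 34 were at least 2-fold higher and 6 lower, and the median was -0.04. The bright members that were lower included Kit, Il3ra, the alpha chain of the interleukin 3 receptor (3.38-fold), and Il11ra1, that of the interleukin 11 receptor (2.96-fold). Il6st, which encodes the shared chain gp130, was at 1.99 in WT and 3.39 in the double mutant, 2.64-fold higher. Il10ra and Il7r were not well above background in WT and were at least 20.8-fold and 13.2-fold higher. Csf3r, the receptor for the granulocyte growth factor, was at 8.29 in WT and 8.14 in the double mutant.

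Erythroid genes had a median of 0.69, with 9 of 21 at least 2-fold higher and 2 lower, against 15.3% and 16.5% over all genes. But over bright features 2 of 8 were higher and 2 lower, where the shares of all bright genes were 8.96% and 9.45%. Hba-a1, an alpha globin gene, was at 0.21 in WT, 4.13 in TET2KD, -2.04 in JAK2V617F, with the double mutant at 2.64, 5.40-fold above WT, and Slc4a1, the anion exchanger of red cells, 20.1-fold, from -2.39 to 1.94. On both genes TET2KD and the double mutant were the high arrays. The erythroid master factor Klf1 was not well above background in WT and was at -2.46 in the double mutant, and the hemoglobin genes are near-identical copies that can share signal. The summed linear level of 9 erythroid marker genes was 3.49 in WT and 15.9 in the double mutant, with Alas2 among those not well above background on either array; their part in the result was not tested. Car2, a carbonic anhydrase of early progenitors, was 4.18-fold lower. Of megakaryocyte and platelet genes 5 of 23 were higher and 3 lower, and the median was -0.35. The defining genes Pf4 and Itga2b differed by 0.04 and -0.84.

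Mitosis genes were higher on balance. Of 39 measured 11 were at least 2-fold higher and 3 lower, and the median was 0.51, against 15.3% higher and 16.5% lower over all genes. Over bright features 6 of 21 were higher and 1 lower, and the median was 0.59, against 8.96% and 9.45% over all bright genes. Cdca8 was at 2.19 in WT, 1.06 in TET2KD, 3.01 in JAK2V617F, with the double mutant at 3.73. Aurka, a kinase of the spindle pole, was at 1.26, -1.06, 2.21 and 2.68, 2.67-fold above WT, and the motor gene Kif11 was 2.78-fold and the cohesin protector gene Sgo1 3.25-fold higher. Kif2c, a kinesin that takes microtubules apart, was not well above background in WT and at least 9.99-fold higher on average over 2 features. Against that direction Cdc20, the activator of the anaphase complex, was 2.88-fold lower, Ndc80, a kinetochore gene, 2.53-fold and Foxm1 2.09-fold. Mki67, the gene of the proliferation antigen Ki-67, differed by 0.59.

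DNA replication genes did not lean: 7 of 45 were at least 2-fold higher and 5 lower, and the median was -0.01. Mcm5 of the replicative helicase was 2.27-fold higher and Mcm2 of the same complex 2.11-fold lower, while Gins2 was 2.22-fold higher and Gmnn, the inhibitor of licensing, 3.17-fold lower. Among cyclins and their regulators 4 of 25 were higher and 4 lower. Cdkn1b, which encodes the inhibitor p27, was at 0.83 in WT, 0.06 in TET2KD, -0.01 in JAK2V617F, with the double mutant at -0.70, 2.90-fold lower. Cdkn1a, which encodes p21, was 5.86-fold higher as an average of features that differed by 0.55 and 4.55, and rests in part on a feature at the floor. Cdkn1c, the inhibitor p57 of resting stem cells, was not well above background in WT.

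Immediate early genes, which sorting and handling of cells are known to induce, had a median of -0.59 with 7 of 25 at least 2-fold higher and 4 lower. Most bright members were a little lower: 4 of the 18 bright genes had a difference above 0, 3 were at least 2-fold lower and 2 were higher. Jund was at 8.34 in WT, 7.37 in TET2KD, 6.83 in JAK2V617F, with the double mutant at 6.65, 3.23-fold below WT, and Klf6 was 2.08-fold lower. Fos, Egr1 and Fosb, bright members inside the line, differed by -0.61, -0.91 and -0.88. Egr3 and Ier3 were 3.87-fold and 2.70-fold higher, and Nr4a3 was not well above background in WT and at least 21.9-fold higher.

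Among housekeeping groups the ribosomal protein genes shifted together by a small amount. Of 78 measured none was 2-fold apart on average, 12 had a difference above 0, and the median was -0.28, where the median of all genes was -0.01. Rps24 was the member with 1 feature past the line, 4.13-fold lower, while its 4 features together gave 1.80-fold. Respiratory chain genes had 7 of 65 at least 2-fold higher and 2 lower, and the median was 0.17. Ndufa5, Ndufb8 and Ndufb6 of complex I were 3.03-fold, 2.35-fold and 2.45-fold higher and Ndufb2 of the same complex 2.46-fold lower, as was Sdha of complex II, 2.17-fold. Of proteasome genes 4 of 38 were higher and 0 lower, led by Psmb3, a subunit of the core particle, at 2.42 in WT, 3.12 in TET2KD, 4.55 in JAK2V617F, with the double mutant at 4.53, 4.31-fold above WT. Mitochondrial ribosomal protein genes had 16 of 78 higher and 11 lower, and the median was 0.31.

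Glycolysis and hypoxia genes had 6 of 31 at least 2-fold higher and 2 lower, and the median was 0.15. Pgam1 and Pgk1, enzymes of lower glycolysis read by bright features, were at 5.75 and 3.49 in WT and 7.05 and 4.60 in the double mutant, 2.45-fold and 2.15-fold higher. Slc2a3, a glucose transporter, was 2.99-fold lower. Adhesion and homing genes had 8 of 27 higher and 2 lower, with Itgal, the alpha chain of LFA-1, 3.43-fold higher on 2 features that differed by 1.75 and 1.81, and Adgrg1, the receptor GPR56 of stem cells, at 5.19 in WT and 3.91 in the double mutant, 2.43-fold lower. S1pr3, a receptor for sphingosine 1-phosphate, was not well above background in WT and at least 72.1-fold higher on 1 feature.

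Genes of DNA methylation and its removal were mixed, with 6 of 21 at least 2-fold higher and 4 lower; the median was 0.27. Tet1 and Tet3, the paralogs of Tet2, differed by -1.01 and 0.27, but their features disagreed, with Tet1 ranging from -1.82 to 0.44 and Tet3 from -0.49 to 1.03. Dnmt3b, a de novo methyltransferase, was at 2.32 in WT and 1.21 in the double mutant, 2.15-fold lower with all 3 features below 0, and Dnmt1, the maintenance enzyme, was 2.23-fold and Dnmt3a 3.08-fold higher on 1 feature each. Of 56 chromatin modifiers 9 were higher and 8 lower. Of TGF-beta pathway genes 5 of 22 were higher and 4 lower, with Tgfbr3, a co-receptor, 12.2-fold lower and Smad1 2.74-fold lower as an average with a feature below background.

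The lists that follow had members at least 2-fold apart each way, where 15.3% of all genes were higher and 16.5% lower. Interferon response genes had 7 of 29 higher and 6 lower with a median of 0.12: Rsad2 was at 2.34 in WT and -1.05 in the double mutant, 10.5-fold lower, while Gbp3 was 5.87-fold higher. Lymphoid priming genes had 5 of 22 higher and 4 lower with a median of -0.01, and over bright features 0 of 10 were 2-fold apart either way. Vpreb1, the surrogate light chain of B cell precursors, was at 1.95 in WT and not well above background in the double mutant, at least 31.9-fold lower. It is also in the B cell and plasma cell list, of which 6 of 17 were higher and 3 lower, with a median of 0.44. For 7 of those 17 the difference is a bound. Cd79b, a chain of the B cell receptor, is in the B cell and plasma cell list only and was 4.83-fold lower. Apoptosis genes had 5 of 24 higher and 6 lower with a median of -0.48, among them Pmaip1, the gene of NOXA, 17.1-fold higher on 1 feature and Casp9, the initiator of the mitochondrial pathway, 5.06-fold lower. MHC class II genes had 2 of 10 higher and 1 lower, with Cd74, the invariant chain, at 4.32 in WT and 4.85 in the double mutant.

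Lists not described above gave the following numbers of members past 2-fold, first higher and then lower. Heme synthesis and iron genes had 6 and 5 of 20, MHC class I genes 2 and 2 of 14, and T and NK cell genes 4 and 1 of 18. Endothelial and stromal genes had 2 and 0 of 9, NF-kB genes 4 and 4 of 21, Kruppel-like factors 1 and 3 of 14 and p53 target genes 3 and 4 of 25. Angiopoietin, TIE and VEGF genes had 2 and 5 of 11, imprinted growth genes 2 and 2 of 11, antioxidant genes 3 and 3 of 22, heat shock genes 3 and 3 of 23, and sex-linked genes 1 and 2 of 4.

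The brightest features show what stood out where the spread was smallest. At a mean level of 4 or more over the 4 arrays, 62 features were at least 2-fold higher and 24 lower; 34 of the former, from 27 genes, and 18 of the latter, from 18 genes, had a name. The genes given here were chosen after their values were seen. On the higher side Ctsg, Mpo, Ssr2, a subunit of the translocon (3.68-fold), Ifitm1, Rangap1, the activator of the nuclear transport GTPase RAN (3.22-fold), and Tyrobp came first, followed by Sdf2l1, a chaperone of the endoplasmic reticulum (2.64-fold), and Cd69, an early activation antigen (2.46-fold). Gapdh was 2.27-fold, 2.14-fold and 2.05-fold higher on 3 of its 8 features. On the lower side came Rps24 on 1 feature, Prg2, Jund, Paip2, an inhibitor of translation (3.13-fold on 1 of 2 features), the hexokinase gene Hk1 (2.97-fold on 1 of 3), and Sik1, a salt-inducible kinase (2.86-fold).

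The largest differences of all were mostly those of single, dimmer features. Among genes well above background on both arrays, Phf23, a PHD finger gene, was at -0.48 in WT and 3.68 in the double mutant, 17.8-fold higher. On the lower side Tbxa2r, the thromboxane receptor, was at 2.47 in WT and -1.93 in the double mutant, 21.1-fold lower, and Hivep1, a zinc finger factor, was 17.7-fold lower. Sema4b, a semaphorin, and Eya2, a transcriptional coactivator, were 17.7-fold and 14.6-fold lower from levels in WT of 3.15 and 3.58. Trmt61b, a tRNA methyltransferase, was not well above background in WT and at least 32.4-fold higher, and Sertad3 was not well above background in the double mutant and at least 40.3-fold lower. Each of these genes was read by 1 feature, so none has a second reading within its transcript.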

How the data were processed

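RNA from sorted LSK cells was read on 4 one-colour arrays of 1 slide scanned on 1 day, 1 array per genotype. The deposited files give the intensity of each spot after background subtraction by Agilent Feature Extraction 10.7.3.1, per the file headers, which place the features on mm9. The authors' series matrix holds log2 values of the same arrays: each column equals the log2 intensity minus a constant, within 0.001 for all 55249 features with 1 spot, and the column medians are -2.64 for WT, -2.63 for TET2KD, -2.60 for JAK2V617F and -2.60 for the double mutant. The deposited text read here does not state its scaling, which was not needed for the results.

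Control spots and outlier spots were left out, the log2 of the processed signal was reduced by each array's 75th percentile, and spots of 1 feature were averaged. A feature was compared when it was well above background on at least 1 of the 2 arrays. Where it was below background on the other, the higher of its own signal and the lowest signal of a single spot called well above background on that array (-3.01 for WT and -3.19 for the double mutant on the log2 scale) took its place, and the fold is then "at least". The mean of repeated spots, of which only some were well above background, can lie under that floor; the fold is then taken from the floor (Tnf). A summed linear level adds the signals of a marker set as multiples of the 75th percentile. Features were named by accession (28026), symbol (3418) or synonym (295) in RefSeq; 23942 had no gene. Gene values are means over compared features.

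Named genes were the members of 45 gene lists with the largest differences or with a described role, the genes with the largest differences on features at least 500 bases apart, and the 15 largest differences each way over genes well above background on both arrays. The members and the lists were chosen with earlier results of these data known. Normexp with an offset of 50, quantile and cyclic loess scaling (limma 3.58.1 in R 4.3.3), scaling to the median, other filters on dim features, a 3-fold threshold, the brightest feature per gene and the authors' log2 values were tried as alternatives; the filter on bright features was added after seeing the data. The other steps ran in Python 3.11.15 with pandas 2.3.3 and numpy 2.4.6. The steps of the comparison were tried on a simulated copy of the WT array with known changes planted in bright genes. Its noise was near that of repeated spots, so it does not cover changes of dim features or differences between animals. With 1 array per group no test across genes was run. Some genes of these lists count in the totals but are not reported here by name.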

Additional observations from a re-analysis of the deposited data

How the results depend on the processing

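No paired analysis was possible because each genotype has 1 array and no test was run. The depth of an array is its signal over background, and dim features limit every count. Of features, 5471 were at least 2-fold higher and 5612 lower; the counts were 2887 and 3084 at 3-fold, 779 and 688 over bright features (chosen after seeing the data), 3165 and 3452 when both arrays had to be well above background, 8711 and 9760 with no filter, and 2093 and 2387 with normexp. Of genes, 2274 and 2454 became 1091 and 1244 at 3-fold, 421 and 444 over bright features, and 806 and 978 with normexp; 1400 were higher with both arrays well above background, and 3779 lower with no filter. Of genes with distant features, 44 and 70 became 6 and 21 at 3-fold, 12 and 8 over bright features, and 15 and 23 with normexp. Quantile, loess and median scaling and the authors' log2 values left each of these counts within 1.5 times. The median of all genes was -0.19 with no filter and between -0.06 and 0.01 under the other settings.

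Over all settings the 45 list medians gave 402 further values, of which 46 moved by more than the spot error and 2 reversed, with some change in 21 lists. The reversed medians were these: that of TGF-beta and SMAD genes was -1.18 over bright features, where 3 genes remained, and that of endothelial and stromal genes was -0.19 with no filter; the cause of the second was not tested. Of the named genes Tet1 reversed, at 0.44 on its brightest feature and over bright features, since its features disagree. Of the values of named genes past 2-fold over all settings, 38 of 1255 fell under 2-fold without changing direction.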
